A study of Danio rerio with 13 samples.

Results

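The genes described here are the zebrafish DNA methyltransferases and their partner uhrf1: dnmt1, dnmt3, dnmt4, dnmt5, dnmt6, dnmt7, dnmt8 and uhrf1. They were picked by the gene symbols that the deposited gene table gives at the start of each annotation, a rule that uses no measured value, and make up 8 genes of the 32677 gene IDs in the table. uhrf1 stands under 2 Ensembl IDs, ENSDARG00000009946 and ENSDARG00000091448, whose counts were equal in 5 of 9 libraries and differed by at most 1 read in the rest. The same reads were therefore counted under both IDs, and uhrf1 was taken as 1 gene. By the synonyms in RefSeq, the older names dnmt3, dnmt4, dnmt5, dnmt6, dnmt7 and dnmt8 stand for dnmt3bb.2, dnmt3bb.1, dnmt3bb.3, dnmt3ab, dnmt3ba and dnmt3aa.

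ZF4, a cell line from zebrafish embryos that the labels call fibroblast, was cultured at its usual 28°C or moved to 18°C and kept there 5 days (18°C/5d) or 30 days (18°C/30d), with no other treatment and no genetic change in any group. RNA-seq covered 3 libraries for each of these conditions, and MeDIP-seq, in which an antibody to methylcytosine pulls down methylated DNA fragments before sequencing, covered 1 library for each, from pooled DNA of the replicate cultures. The 28°C cells were the control for both times in the cold, so both comparisons share the same 3 control libraries. The labels give no culture time for these libraries. Cold and time in culture therefore cannot be told apart in the comparisons with 28°C or between the times. A line grown in dishes is a model of the cell and not of the fish.

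Methylation of cytosine in the CpG dinucleotide is copied when DNA is replicated. Uhrf1 binds the half-methylated DNA behind the replication fork and recruits Dnmt1, which methylates the new strand. Enzymes of the Dnmt3 type can methylate DNA that carried no mark, and zebrafish hold several copies of them: dnmt6 and dnmt8 are related to mammalian DNMT3A, and dnmt3, dnmt4, dnmt5 and dnmt7 to DNMT3B.

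Total counts were 37509447 to 44853311 in the libraries numbered 1 and 2 and 21407769 to 22504969 in the 3 libraries numbered 3. Replicate 3 stood apart from the others in every condition. The correlation of log2 CPM (counts scaled to a total of 1000000 a library) over genes was 0.837 to 0.924 between a replicate 3 library and one numbered 1 or 2, against 0.944 to 0.985 among replicates 1 and 2 and 0.912 to 0.971 among the 3 libraries numbered 3. The fibroblast markers fixed for the check of the label summed to 4445 to 12707 CPM, with all 12 of 12 genes above 1 CPM in some library. By mean, col1a1a, a collagen chain, was the highest. vim (mean 1.69 CPM, 0.844 to 2.59) and dcn (1.43, 0.172 to 2.77) were low, below the muscle marker tnnt3b (6.46). Of 29 markers of other cell types, 16 stayed below 1 CPM in all 9 libraries, lyz and cdh5 among them with 0 reads, but the epithelial cadherin cdh1 (mean 169 CPM), the muscle factor myod1 (40.6), the pigment cell enzyme dct (33.6), the epithelial keratin krt4 (23.0) and the neuronal elavl3 (10.6) had reads. krt4 was at 185 CPM in replicate 3 at 28°C, at 3.54 and 8.66 in replicates 1 and 2, and at 0.111 to 2.90 in the cold libraries, so it stood out in the library that also held the extreme values of several genes described here. elavl3 was at 0.561 to 1.03 CPM in the 3 libraries numbered 3 and at 11.03 CPM or more in the others. The part of these markers in the results was not tested. In bulk RNA, fewer cells that express a gene and less of its RNA per cell cannot be told apart.

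None of these genes passed the test in the cold at either time, and dnmt4 came nearest, with less RNA in each 30-day library than in any 28°C library. All of the 8 genes had reads in every library and all 8 passed the filter on low counts. Per length, in RPKM (CPM divided by the length in kilobases), dnmt1 was highest with a mean of 5.43 over the 9 libraries (range 2.61 to 10.1). It was followed by dnmt4 with 3.24 (1.81 to 5.31), uhrf1 with 2.92 (1.31 to 5.17), dnmt8 with 2.34 (0.51 to 5.74), dnmt5 with 1.07 (0.29 to 2.01), dnmt6 with 1.02 (0.38 to 2.63) and dnmt7 with 0.81 (0.44 to 1.02). dnmt3 was far below them with 0.071 RPKM (0.02 to 0.14), and it was the only gene whose range did not overlap that of its neighbour in this order. dnmt1 was above dnmt4 in 8 of 9 libraries, dnmt4 above uhrf1 in 7 of 9 and uhrf1 above dnmt8 in 6 of 9, while the order within dnmt8, dnmt5, dnmt6 and dnmt7 held in only 5 of 9 libraries for each neighbouring pair. These levels rest on the authors' length column, which gives 24552 bases for dnmt7 but 3678 bases for dnmt4 and does not say what was measured. In CPM, which leaves length out, dnmt4 (mean 11.9) was above dnmt3 (0.713) only and below all the others, dnmt7 (19.9) and dnmt5 (18.4) among them. The high place of dnmt4 per length thus rests on its length value.

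For the maintenance enzyme dnmt1 (ENSDARG00000030756), the CPM in replicates 1, 2 and 3 were 74.0, 110.8 and 28.6 at 28°C, 55.1, 80.2 and 48.7 after 5 days, and 52.3, 53.8 and 32.8 after 30 days. In the cold the libraries numbered 1 and 2 were lower than their 28°C counterparts at both times and replicate 3 was higher, and the groups overlapped. The log2 fold change was -0.24 ± 0.47 (SE, n = 3 and 3, 95% interval -1.30 to 0.83) after 5 days and -0.57 ± 0.47 (-1.64 to 0.50) after 30 days, with adjusted p = 0.946 and 0.672 (edgeR's quasi-likelihood test, Benjamini-Hochberg over all genes tested). Both intervals include 0, so with 3 libraries a group neither a rise nor a fall of dnmt1 within them is excluded. In a fit with the replicate number as a block the changes were -0.06 ± 0.29 (-0.73 to 0.62) and -0.46 ± 0.29 (-1.13 to 0.21). These did not pass the test either (edgeR adjusted p = 0.954 and 0.421).

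uhrf1 gave 34.6, 51.0 and 13.3 CPM at 28°C, 23.3, 52.6 and 31.3 after 5 days, and 20.05, 14.3 and 26.8 after 30 days. At 30 days the 3 libraries were closer together than at 28°C, replicates 1 and 2 below their 28°C values and replicate 3 above, so the groups overlapped here too. The log2 fold change was 0.09 ± 0.47 (-0.98 to 1.15) after 5 days and -0.70 ± 0.47 (-1.77 to 0.37) after 30 days (edgeR adjusted p = 0.991 and 0.583). The value at 5 days turned to -0.26 when replicate 3 was left out of every condition. Between the times, uhrf1 was lower at 30 days than at 5 days within each replicate number, with a log2 fold change of -0.79 ± 0.48 (-1.86 to 0.28) that did not pass the test (edgeR adjusted p = 1.00).

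**Figure D1:**
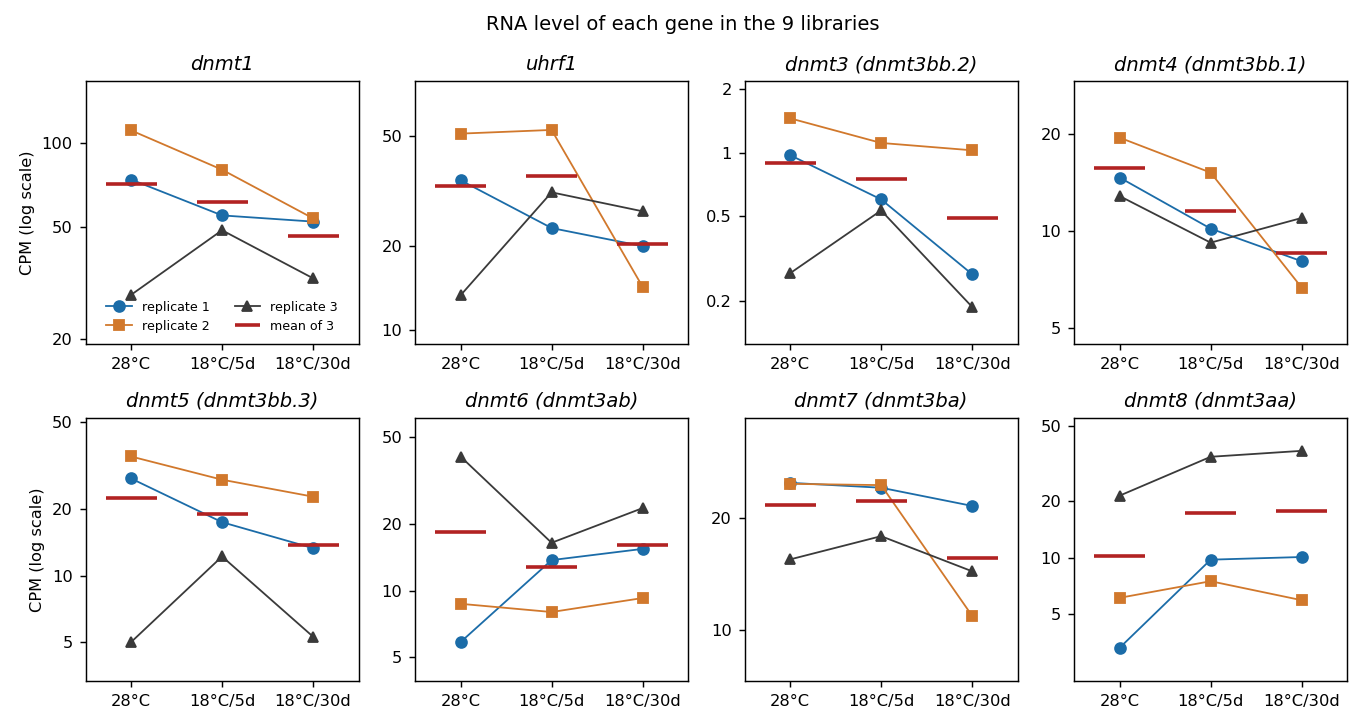
CPM (vertical axis, log scale) of each of the 8 genes at 28°C (left) and in the 18°C cultures of each length (5d in the middle, 30d at right); each point is 1 library, lines join libraries with the same replicate number, and red bars are the means of 3. In dnmt1, uhrf1, dnmt3, dnmt4, dnmt5 and dnmt7 the 28°C replicate 3 is the lowest of the 3 control libraries, and in dnmt6 and dnmt8 it is the highest. Only for dnmt4 do the 28°C and 18°C/30d libraries not overlap.

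Among the copies related to DNMT3B, dnmt4 (dnmt3bb.1, ENSDARG00000036791), which in zebrafish is known from blood stem cells, differed little between the replicates. Its CPM were 14.7, 19.5 and 12.8 at 28°C, 10.2, 15.2 and 9.20 after 5 days, and 8.05, 6.67 and 10.98 after 30 days. Every 30-day library was below every 28°C library, and within each replicate number dnmt4 was lower in the cold at both times. CPM was lower within all 3 numbers for 18.0% of the genes tested after 5 days and for 18.6% after 30 days, where dnmt3 and dnmt7 were too. A lack of overlap between these groups was found for 17.5% of the 19622 genes tested, and in the same direction for 8.38%, so 1 of 8 genes is near that background. The log2 fold change after 30 days was -0.86 ± 0.27 (-1.48 to -0.24), with an edgeR adjusted p of 0.211, and it did not pass the threshold of 0.05. After 5 days it was -0.45 ± 0.27 (-1.07 to 0.16; adjusted p = 0.601).

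dnmt7 (dnmt3ba, ENSDARG00000052402) gave 25.0, 24.8 and 15.5 CPM at 28°C, 24.2, 24.6 and 17.9 after 5 days, and 21.6, 10.9 and 14.4 after 30 days. Each library at 5 days was near its 28°C counterpart, and at 30 days all 3 libraries were lower than their 28°C counterparts, replicate 2 by the most. The log2 fold change was 0.01 ± 0.32 (-0.71 to 0.74) and -0.46 ± 0.32 (-1.19 to 0.26) at 5 and 30 days (edgeR adjusted p = 0.997 and 0.595).

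dnmt5 (dnmt3bb.3, ENSDARG00000057863) gave 27.6, 34.8 and 4.98 CPM at 28°C, 17.5, 27.3 and 12.2 after 5 days, and 13.3, 22.9 and 5.28 after 30 days. Replicate 3 was the lowest library in every condition, at 0.160 times the mean of replicates 1 and 2 at 28°C. The log2 fold change was -0.28 ± 0.73 (-1.94 to 1.37) and -0.63 ± 0.74 (-2.29 to 1.04), neither past the test (edgeR adjusted p = 0.969 and 0.791). The value at 5 days turned to 0.073 with the replicate block and to 0.096 without replicate 2 of 28°C, so it gives no direction.

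dnmt3 (dnmt3bb.2, ENSDARG00000057830) had only 4 to 59 reads a library. Its CPM ran from 0.269 to 1.45 at 28°C, 0.533 to 1.11 after 5 days and 0.187 to 1.03 after 30 days, ranges that overlap throughout. The interval of its log2 fold change after 30 days, -2.57 to 1.08 around -0.74 ± 0.81, is wide, and depth limits what can be said of this gene. dnmt3, dnmt4 and dnmt5 are paralogs, and how the authors' counting dealt with reads that match more than 1 of them is not given in the sources used here.

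The copies related to DNMT3A behaved otherwise between the replicates. dnmt6 (dnmt3ab, ENSDARG00000015566) gave 5.84, 8.71 and 40.6 CPM at 28°C, 13.8, 7.99 and 16.5 after 5 days, and 15.5, 9.25 and 23.7 after 30 days. At 30 days it was above its 28°C level in replicates 1 and 2 and below it in replicate 3, whose 28°C library was the highest of all 9. The log2 fold change after 30 days was -0.13 ± 0.64 (-1.58 to 1.33; edgeR adjusted p = 0.952), and it became 0.82 without replicate 3 in every condition and 0.17 in the fit with the replicate number as a block. After 5 days it was -0.45 ± 0.65 (adjusted p = 0.904) and 0.52 without replicate 3, so no direction can be given for dnmt6.

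dnmt8 (dnmt3aa, ENSDARG00000005394) gave 3.32, 6.13 and 21.4 CPM at 28°C, 9.78, 7.51 and 34.5 after 5 days, and 10.1, 5.95 and 37.1 after 30 days. Replicate 3 was the highest in each condition, and within the replicate numbers dnmt8 was higher after 5 days in 3 of 3 and after 30 days in 2 of 3, replicate 2 being near its 28°C level (lower in CPM, but 0.19 higher on the log2 scale with TMM, edgeR's scaling between libraries). Higher CPM within all 3 numbers after 5 days was found for 21.5% of the genes tested. The log2 fold change was 0.83 ± 0.86 (-1.10 to 2.76) and 0.80 ± 0.86 (-1.14 to 2.73) at 5 and 30 days (edgeR adjusted p = 0.829 and 0.764). With the replicate block the same changes were 0.82 ± 0.28 (0.18 to 1.45) and 0.79 ± 0.28 (0.16 to 1.43), still short of the threshold (edgeR adjusted p = 0.200 and 0.171). The direction of dnmt8 was not stable at either time. It reversed in some refits with libraries left out, whose ranges are given at the end.

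None of the 8 genes was called, that is, had an adjusted p under 0.05, in any of the comparisons. For 5 days against 28°C edgeR called 0.0% of the 19622 genes tested (0 genes), although 2220 had an unadjusted p under 0.05, and DESeq2 called 552. For 30 days against 28°C it called 0.0612% (12 genes, 8 higher and 4 lower; 0 when any single library other than replicate 3 of 30 days was left out, and 2 without that one), and between the times 0.0% (0 genes, 252 at an unadjusted p under 0.05; DESeq2 called 2). With the replicate number as a block the calls were 51 (0.26%) after 5 days, 297 (1.51%) after 30 days and 0 between the times (496 at an unadjusted p under 0.05), again with 0 of the 8 genes among them. With so few genes called, that none of the 8 was among them is near the background. The smallest adjusted p that any of these genes reached under any alternative tried was 0.0888, for dnmt4 after 30 days in DESeq2.

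Between 5 and 30 days in the cold, dnmt1, uhrf1, dnmt3, dnmt5 and dnmt7, 5 of the 8 genes, had lower CPM at 30 days within each of the 3 replicate numbers, against 11.6% of the genes tested. For dnmt3 this held in CPM only, since with TMM scaling its replicate 2 was 0.13 higher at 30 days on the log2 scale. On that scale the differences of dnmt5 in replicate 2 (-0.0066) and of dnmt1 in replicate 1 (-0.060) were near 0. The log2 fold changes between the times ran from -0.79 for uhrf1 to 0.32 for dnmt6, with 7 of 8 below 0 (median -0.37, and 0.01 over all genes tested), and none passed the test. Of the genes of S phase and cell division listed further on, 22 of 26 also had log2 fold changes below 0 between the times (median -0.24), and their part in these values was not tested.

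The fold changes had a common sign at 30 days more often than at 5 days. Against 28°C, 5 of 8 were below 0 after 5 days (median -0.26) and 7 of 8 after 30 days (median -0.60), while the medians over all genes tested were -0.01 at both. With the replicate block 4 of 8 and 6 of 8 were below 0, with medians of -0.0038 and -0.51, so the median at 5 days was near 0 in that fit. These counts describe 8 genes measured in the same libraries and were not tested.

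**Figure D2:**
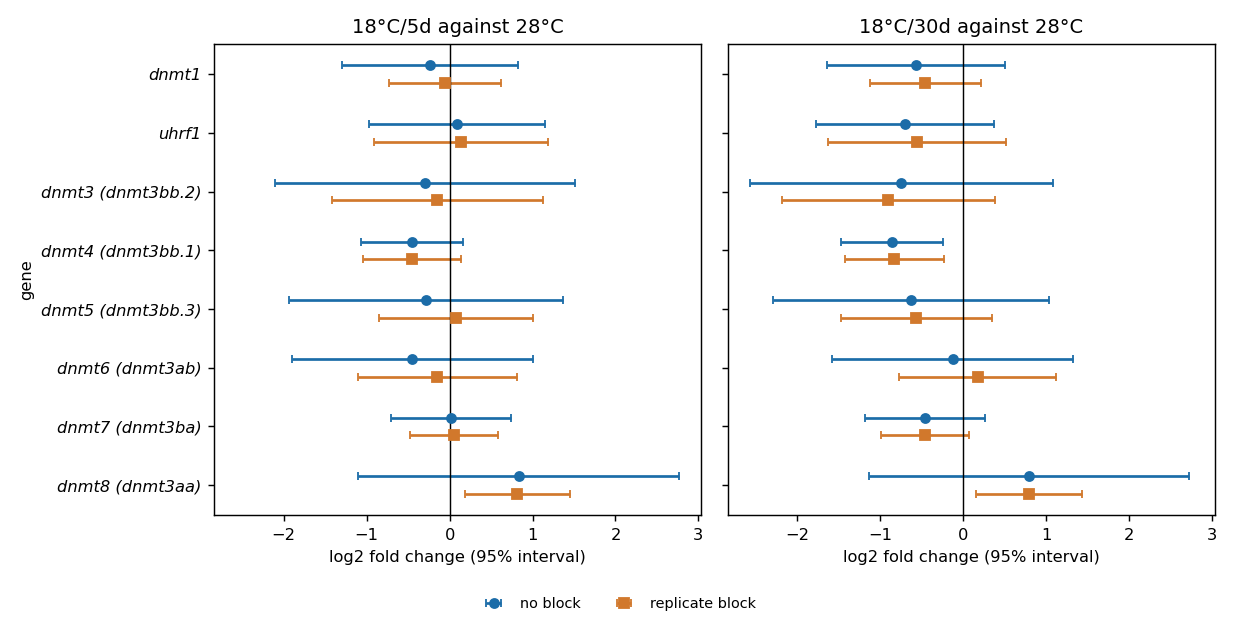
Log2 fold change (horizontal axis) of the 8 genes at 18°C/5d and 18°C/30d against 28°C, from edgeR fits without a block (circles) and with the replicate number as a block (squares); bars are 95% intervals, with 3 libraries a group. All intervals at 18°C/5d include 0 except that of dnmt8 with the block, and at 18°C/30d those of dnmt4 in both fits and of dnmt8 with the block do not; none of these passed the test after adjustment.

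At 28°C replicate 3 was far from replicates 1 and 2 for most of these genes. It stood at 0.310 times the mean of replicates 1 and 2 for dnmt1, 0.312 for uhrf1, 0.222 for dnmt3 and 0.160 for dnmt5, and at 5.58 times for dnmt6 and 4.53 times for dnmt8. dnmt4 (0.751 times) and dnmt7 (0.623 times) were closer. Over all genes tested, replicate 3 was at least 2-fold apart from that mean for 26.5% at 28°C, 15.7% after 5 days and 18.2% after 30 days. For these shares a small constant was added to each CPM, which draws genes of low CPM toward equality. The ratios of the single genes are of plain CPM. After 5 days the ratio of dnmt1 was 0.721 and that of dnmt6 1.52, whereas dnmt8 kept 3.99 times after 5 days and 4.62 times after 30 days.

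A list of genes of S phase and cell division (the MCM helicase, replication factors, cyclins and cdk1; 26 of 28 matched) moved with some of these values and not with others. Its summed CPM at 28°C were 2108 and 2653 in replicates 1 and 2 but 317 in replicate 3. They were 1474, 2161 and 1312 after 5 days, and 1285, 1634 and 870 after 30 days. The library with the lowest sum, replicate 3 at 28°C, had the lowest dnmt1, uhrf1 and dnmt5 and the highest dnmt6 of all 9, and the library with the highest sum, replicate 2 at 28°C, had the highest dnmt1, dnmt3, dnmt4 and dnmt5. Replicate 2 at 30 days, with a sum of 1634, had the lowest dnmt4 (6.67 CPM) and dnmt7 (10.9) of all 9. The part of the S phase and division genes in the results on the methyltransferases was not tested.

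**Figure D3:**
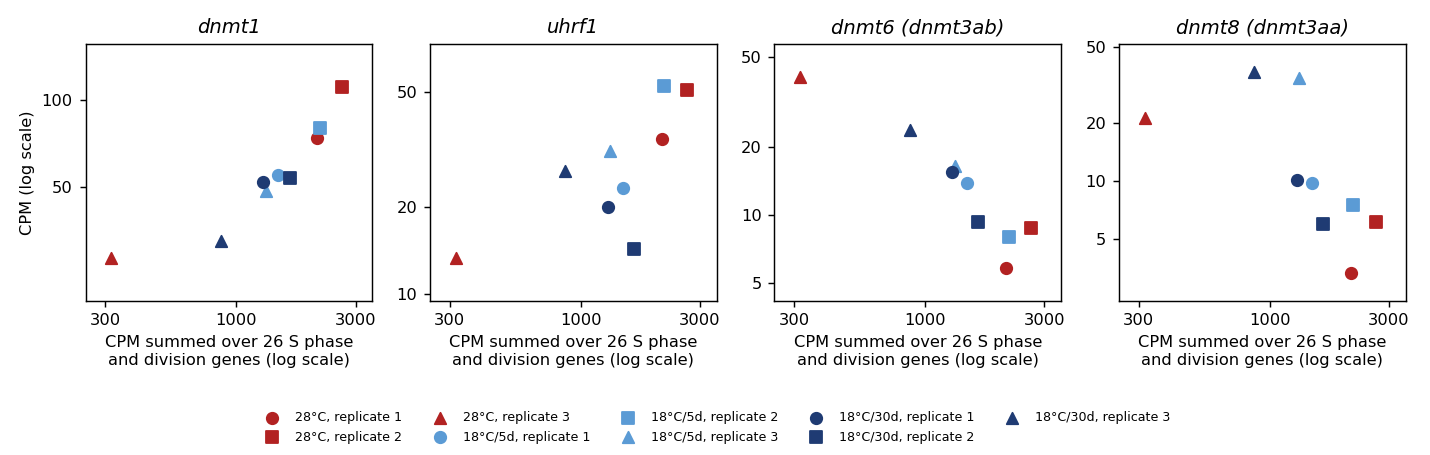
CPM of dnmt1, uhrf1, dnmt6 and dnmt8 (vertical axes, log scale) against the CPM summed over the 26 S phase and division genes (horizontal axes, log scale) in the 9 libraries; colour gives the condition and shape the replicate number. dnmt1 is lowest at a sum of 317 and highest at 2653, while dnmt6 is highest at 317.

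Of genes outside the family, those whose log2 CPM ran most like dnmt1 over the 9 libraries were lig1, the DNA ligase of replication (Pearson r = 0.989), rnaseh2a, a subunit of RNase H2 (0.985), palb2, a partner of Brca2 (0.985), rfc4, a subunit of the clamp loader (0.984), and poc1b, a centriole protein (0.981). Over the 6 libraries numbered 1 and 2, the r of these genes was 0.940 to 0.969. These 6 are among the 9 libraries that the genes were picked on, so this is no separate support. Within the family, dnmt5 ran closest to dnmt1 (r = 0.969, rank 13 of 19621 genes), uhrf1 came at rank 1912 (r = 0.75), and dnmt6 was near the far end (r = -0.93, rank 19577). For uhrf1 the closest were mns1 (0.972), an ID without a gene name in the tables used (0.968), parp1, the poly(ADP-ribose) polymerase (0.955), proser1 (0.938) and zc3h7ba (0.923). Without the replicate 3 libraries dnmt4 ran close to both (r = 0.91 with dnmt1 and 0.95 with uhrf1), against 0.51 and 0.69 over all 9. The r of dnmt5 with dnmt1 was then 0.87, below that of dnmt4, so the order of the 2 genes turned. These values are descriptions over few libraries that share the separation of replicate 3.

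Other genes of DNA methylation gave few calls, as did all genes tested (0.0% and 0.0612% at 5 and 30 days without the block, 0.26% and 1.51% with it), so the counts of calls below say nothing particular about these lists. Of the maintenance partners, such as hells, usp7 and pcna, 0 of 14 tested were called in either fit, with 13 of 14 below 0 and a median log2 fold change of -0.44 after 30 days. Their most abundant member hdac1, a histone deacetylase, had 174 to 247 CPM at 28°C, 298 to 323 after 5 days and 293 to 326 after 30 days, with log2 fold changes of 0.48 ± 0.29 and 0.56 ± 0.29 that did not pass the test. Of the S phase and division list 0 of 26 were called, with a median of -0.04 after 5 days and -0.43 after 30 days. With the block these medians were 0.36 and -0.12. Its most abundant gene mcm7, a subunit of the replicative helicase, had log2 fold changes of 0.02 ± 0.54 and -0.54 ± 0.54.

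Of the proteins that read methylated CpG, 0 of 9 were called (median -0.20 after 5 days and -0.44 after 30 days). mbd1b, the most abundant, had 64.3 to 86.8 CPM at 28°C, 60.2 to 67.7 after 5 days and 58.0 to 72.8 after 30 days. Of the genes that oxidise or repair methylcytosine 0 of 9 were called (median 0.19 and 0.21), with gadd45ba at 122 to 196 CPM at 28°C, 85.8 to 143 after 5 days and 74.2 to 211 after 30 days. trdmt1, once named dnmt2, methylates transfer RNA, and had 1.35 to 1.80, 0.711 to 1.401 and 0.607 to 0.914 CPM in the same order. Its groups at 28°C and 30 days did not overlap, as was found for 17.5% of the genes tested (8.38% in this direction). Its log2 fold change of -0.87 ± 0.41 did not pass the test (edgeR adjusted p = 0.395).

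Of the methyl donor cycle, which makes S-adenosylmethionine, the donor that all DNA methyltransferases use, 0 of 21 were called without the block and 1 of 21 with it. That gene was mat2aa, a methionine adenosyltransferase that makes S-adenosylmethionine. Its CPM in replicates 1, 2 and 3 were 267, 245 and 585 at 28°C, 90.2, 84.1 and 195 after 5 days, and 103, 125 and 228 after 30 days. Within every replicate number it was lower at both times in the cold. With the block it fell by 1.56 ± 0.22 on the log2 scale after 5 days and by 1.19 ± 0.22 after 30 days (edgeR adjusted p = 0.0446 and 0.0440), and without the block the log2 fold changes were about as large, -1.53 and -1.24, with an adjusted p of 0.282 and 0.305. The fit with the block called 0 genes in all after 5 days when any 1 replicate number was left out, and 0 after 30 days without replicate 1 or 2. The call of mat2aa was lost there with all others. With fewer libraries and no gene called, this says nothing particular about mat2aa. mtr, the methionine synthase and the most abundant of the list, was at 1181 and 836 CPM in replicates 1 and 2 at 28°C and at 132 in replicate 3. It was at 1443, 1011 and 106 CPM after 5 days and at 1510, 1019 and 104 after 30 days.

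MeDIP-seq peaks gave a second kind of value at these genes, the number of pulled-down reads at each peak, on Zv9/danRer7 as the deposited table gives positions. There were 92 peaks annotated to the 9 gene IDs. With 1 pooled library per condition, a peak test compares 3 libraries and not the conditions, so no p is given. A peak was called where Fisher's exact test against the other reads on peaks gave an FDR of at most 0.01 and the ratio of (RPM + 1) was at least 2 or at most 0.5, RPM being reads scaled to a total of 1000000 on peaks. The 92 peaks held 8 in promoters, 21 in exons, 62 in introns and 1 downstream, and 0 were in predicted CpG islands. dnmt8 had 39 of them, dnmt4 and dnmt6 16 each, dnmt3 and dnmt7 3 each, dnmt1 and dnmt5 1 each, and uhrf1 7 at the first ID and 6 at the second.

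Of the 92 peaks, 17 were called after 5 days against 28°C, 6 higher and 11 lower, and 19 after 30 days, 9 higher and 10 lower. Over all 160561 peaks, 23.7% were called after 5 days (11.3% higher and 12.5% lower) and 20.2% after 30 days (10.9% higher and 9.25% lower). The calls at these genes were thus about as frequent as over all peaks. All 17 calls after 5 days and 18 of 19 after 30 days involved a library listed at 0 reads at that peak, as did 90.4% and 98.7% of the calls over all peaks. The median ratio over the 37 peaks that no library lists at 0 was 0.965 after 5 days and 1.00 after 30 days. No peak was listed at 1 read in any library, although 41125, 47030 and 46772 peaks were listed at 0 (28°C, 5 days and 30 days). Plain counts with so many 0s would hold 1s too, so a 0 was read as a cut-off. The number of reads at such a peak is not known. The smallest count above 0 over all peaks was 3 at 28°C, 2 after 5 days and 3 after 30 days. With each 0 replaced by that count, 3 of the 92 peaks after 5 days and 1 after 30 days were called, against 4.7% and 1.22% of all peaks, so these counts too were near the background. A peak listed at 0 may have held more reads than the smallest count. A call that stays under this replacement is therefore not secured by it.

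**Figure D4:**
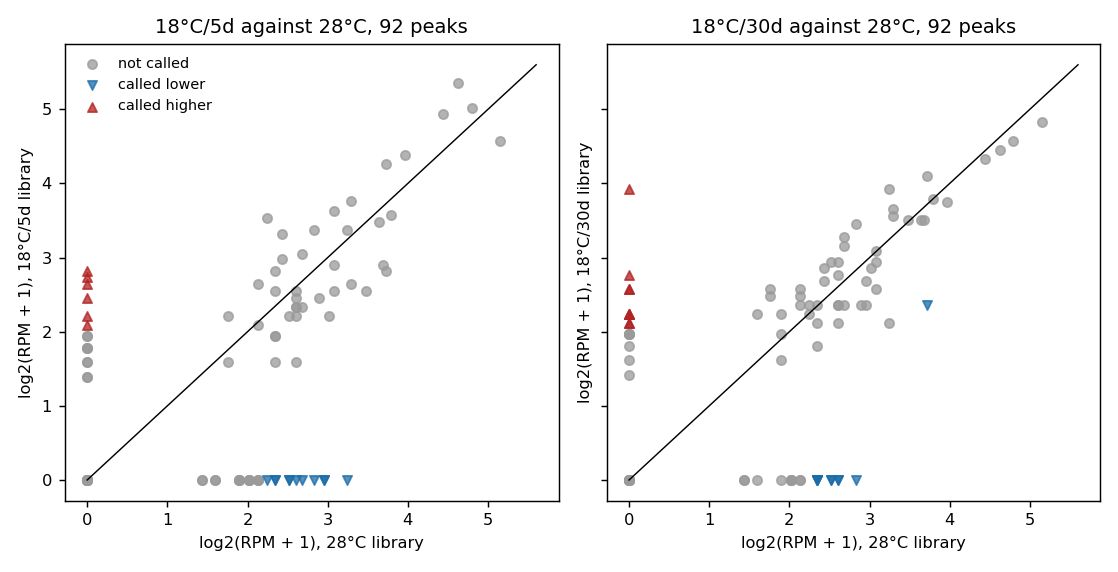
Log2(RPM + 1) of the 92 MeDIP-seq peaks at the DNA methyltransferase genes and uhrf1 in the 18°C/5d library (left, vertical axis) and the 18°C/30d library (right, vertical axis) against the 28°C library (horizontal axes); each point is 1 peak, the line marks equal values, and triangles are called peaks. All called peaks but 1 lie on an axis, where 1 of the libraries compared is listed at 0.

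At dnmt1 the single peak, in an intron at chr3:55447393-55447928, had 15 reads (5.08 RPM) at 28°C and was listed at 0 in both cold libraries. It was called lower at both times. Where a library is listed at 0, here and below, no fold change is given. The peak was not called once a 0 was replaced by the smallest count. No promoter peak was listed for dnmt1, uhrf1, dnmt4 or dnmt5, and a peak list does not show that a region without a peak is unmethylated. At uhrf1, the exon peak chr22:4141089-4142293 had 25, 0 and 8 reads at 28°C, 5 days and 30 days. It was called lower after 5 days, also with the 0 replaced. The exon peak chr22:4154462-4155117 of uhrf1 had 0, 8 and 0 reads and was called higher after 5 days. At the second uhrf1 ID, the intron peak chr22:3874189-3874997 had 12, 5 and 0 reads and was called lower after 30 days. Both lost their calls with the 0 replaced. The exon peak chr22:4152642-4153235 of uhrf1, with 16, 10 and 10 reads, was not called. How MeDIP-seq reads that match both uhrf1 IDs were placed is not given in the sources used here.

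The largest peak of dnmt4, in an intron at chr23:17210877-17211712, had 102, 56 and 66 reads, or 34.5, 22.7 and 27.4 RPM, and was not called. Other intronic peaks of dnmt4 went opposite ways. chr23:17229920-17231185 had 0, 14 and 14 reads and chr23:17233364-17234384 had 0, 15 and 34, both called higher at both times. chr23:17248079-17248825 had 18, 0 and 0 reads and chr23:17263093-17263825 had 12, 0 and 0, both called lower at both times. With the 0 replaced, of these 4 peaks only chr23:17233364-17234384 stayed called, and only after 30 days. The intronic peak chr23:17235648-17236654, with 20, 0 and 13 reads, was called lower after 5 days, also with the 0 replaced. Summed over its 16 peaks, dnmt4 had 127, 116 and 138 RPM.

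dnmt5 had 1 peak, in an exon at chr23:17145857-17147657, with 70, 98 and 50 reads, not called. The promoter peaks of dnmt3, chr23:17174377-17174897 and chr23:17175079-17177085, had 10, 13 and 11 and 38, 27 and 31 reads, and neither was called. The promoter peak of dnmt7, chr8:24208284-24209093, had 11, 26 and 9 reads. Its ratio after 5 days was 2.44, but its FDR was above 0.01, and after 30 days the ratio was 1.00.

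At dnmt6 the exon peak chr17:37112582-37113651 had 36, 15 and 10 reads and was called lower after 30 days (ratio of (RPM + 1) 0.391, and 2.93-fold in RPM itself). It was the only called peak of these genes with reads in all 3 libraries, and it was not called when only such peaks were tested. A further 2 intron peaks of dnmt6 with 14 reads each at 28°C, chr17:37190886-37191309 and chr17:37214812-37215188, were listed at 0 in the cold, and lost their calls with the 0 replaced. The intron peak chr17:37174297-37175665 had 20, 0 and 10 reads and was called lower after 5 days, also with the 0 replaced. No peak of dnmt6 was called higher, and the sum over its 16 peaks was 87.7, 63.3 and 66.5 RPM. Of these peaks, 14, 7 and 11 were listed above 0 at 28°C, 5 days and 30 days. The 7 with reads in all 3 libraries had a median ratio of 1.29 after 5 days and 0.905 after 30 days. At dnmt8, the promoter peak chr20:47302268-47303029 had 0, 13 and 0 reads and was called higher after 5 days, and the promoter peak chr20:47366361-47367062 had 12, 7 and 0 and was called lower after 30 days. With each 0 replaced, these and all other called peaks of dnmt8 lost their calls. No peak of dnmt8 was called in the same direction at both times. Its 39 peaks summed to 134, 128 and 142 RPM, and the 14 with reads in all 3 libraries had a median ratio of 0.865 after 5 days and 0.974 after 30 days.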

How the data were processed

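RNA-seq and MeDIP-seq of ZF4 cells were used as deposited. The RNA-seq table deposited by the authors holds raw counts for each Ensembl gene beside RPKM and CPM values (the CPM columns are headed TPM, and equal counts scaled to 1000000 a library to within 0.0005); how reads were aligned and counted is not given in the sources used here. For MeDIP-seq, per the paper's methods, alignment was to Zv9/danRer7 by Bowtie2 and peak calling by MACS, and the authors deposited read counts and RPM values for peaks merged with bedtools. Columns of the authors' own ratios and p-values were not used, nor was the input DNA library.

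Groups came from the sample labels. Counts were tested with edgeR 4.0.16 (R 4.3.3; TMM, filterByExpr, quasi-likelihood F-test, 9 libraries in 1 fit, no block) with Benjamini-Hochberg adjustment over 19622 genes, called under 0.05; intervals are 95%. Nothing in the labels says what a replicate number shares. After removal of condition means, libraries with the same number correlated at 0.266 to 0.672 across genes in all 9 pairs (mean 0.476), so a replicate block was also fitted. The mean for different numbers was -0.212. It follows largely from the removal of the means and is no separate support for pairing. The separation comes mainly from replicate 3: among the libraries numbered 1 and 2 the correlation was 0.266 to 0.645 within a number and 0.133 to 0.513 across numbers. Whether the libraries are separate cultures is not stated in the labels, so p-values measure the spread between these libraries. Peaks were tested with Fisher's exact test (SciPy 1.17.1) over 160561 peaks and 2406158 to 2952954 reads a library. This test covers counting error only. DESeq2 1.42.0, other scalings and filters, and leaving out libraries were alternatives. Tests were run on simulated data with planted changes larger than those found for these genes. The simulated peaks were well covered and had no cut-off at low counts. That check therefore does not cover the peak calls given here, nor changes as small as those of the 8 genes. The members follow from gene symbols alone, but this gene family and the lists were chosen with earlier results of these data known. Every one of the 8 genes is named; of other lists, at most 3 called genes per comparison by adjusted p, or else the most abundant; and the 5 genes most like dnmt1 and uhrf1.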

Additional observations from a re-analysis of the deposited data

How the results depend on the processing

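None of the 8 genes was called in any fit. Of 432 refitted log2 fold changes of these genes, 395 kept their direction and 37, from 11 of 24 values, reversed it; the cause was not tested. Leaving out the replicate 3 libraries in every condition reversed uhrf1 (-0.26), dnmt6 (0.52) and dnmt7 (-0.12) after 5 days and dnmt6 (0.82) after 30 days, each against 28°C, and dnmt8 between the times (0.016). The replicate block reversed dnmt5 after 5 days (0.073) and dnmt6 after 30 days (0.17). Leaving out single libraries, or 1 replicate number in the fit with the block (chosen after seeing the data), gave after 5 days -0.63 to 0.18 for dnmt1, -0.31 to 0.54 for uhrf1, -0.73 to 0.29 for dnmt3, -0.77 to 0.55 for dnmt5, -0.84 to 0.79 for dnmt6, -0.22 to 0.21 for dnmt7 and -0.20 to 1.86 for dnmt8. After 30 days the ranges were -0.52 to 1.11 for dnmt6 and -0.20 to 1.82 for dnmt8, and between the times -1.02 to 0.075 for dnmt5 and -1.03 to 0.98 for dnmt8.

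Over all genes, 51 were called after 5 days with the replicate block, 552 by DESeq2 and 1 without replicate 3, against 0. After 30 days the 12 genes became 297 with the block, 899 by DESeq2, 54 without replicate 3 in every condition, 2 without the filter on low counts and 0 with only the 6 libraries compared. Leaving out any single library gave 0 to 2, and the block fit without 1 replicate number gave 0 to 11. Between the times DESeq2 called 2, against 0. Pairing by the block changed no call among the 8 genes. Peaks called at these genes, 17 and 19, were 8 after 5 days and 5 after 30 days at an FDR of at most 0.001 and 4-fold, 3 and 1 with each 0 replaced, and 0 and 0 with only peaks read in all 3 libraries. Depth limits dnmt3, with 4 to 59 reads a library, and most of the peaks.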
